A study of Mus musculus with 15 samples.

Results

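The genes described here are 32 genes of the unfolded protein response and of protein folding in the endoplasmic reticulum (ER), taken by name, and not by their values, from the 48709 genes of the deposited count table. All 32 passed the filter on low counts, which kept 16554 genes for testing. They were sorted, from general knowledge, by the arm of the response that each is best known for. The PERK-Atf4 arm held 7 genes, the Ire1-Xbp1 arm 6 and the Atf6 arm 9, while 6 genes of ER-associated degradation answer to more than a single arm and 4 further ER genes were kept apart. RNA came from pancreatic islets of 15 female NOD (NOD/ShiLtJ) mice, an inbred strain in which leukocytes enter the islets and diabetes develops spontaneously. Each of the 5 groups, aged 4, 6, 8, 10 and 12 weeks, held 3 mice with no treatment named, and the 4-week-old mice are the reference only in being the youngest. No diabetes-resistant strain was analysed here, so postnatal ageing and insulitis cannot be told apart.

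Secretory proteins fold in the ER, and beta cells, which make insulin in bulk, depend heavily on this compartment. Unfolded protein in the ER is sensed by PERK (Eif2ak3), Ire1 (Ern1) and Atf6. PERK phosphorylates the translation factor eIF2α, which slows protein synthesis but favours translation of Atf4. Ire1 splices the Xbp1 mRNA into the form that encodes the active transcription factor, and Atf6 is cleaved in the Golgi to release another. Together Xbp1 and Atf6 drive ER chaperone and degradation genes through the ER stress response element (ERSE), whereas Atf4 acts through C/EBP-ATF response elements (CARE). These regulatory steps (phosphorylation, splicing, cleavage) were not measured by gene counts, which give the level of each mRNA.

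The promoter sequences show which members carry these elements. RefSeq promoters of the GRCm38.p6 assembly (the C57BL/6J reference, not NOD), covering 250 bases before to 50 bases after each start, were found for 28 of the 32 members. Both strands were searched for ERSE (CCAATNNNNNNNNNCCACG), ERSE-II (ATTGGNCCACG), the core of the Xbp1 element UPRE (TGACGTGG) and CARE (TGATGNAA, which includes the form TGATGCAA). ERSE was found in 9 of the 28 member promoters (Hspa5, Hsp90b1, Calr, Creld2, Pdia6, Dnajc3, Derl3, Syvn1 and Canx), against 0.119% of 32851 promoters of the same length. CARE was found in 4 members (Chac1, Asns, Trib3 and Herpud1) against 3.97% of all promoters, and the form TGATGCAA in 2 of these (Chac1 and Herpud1) against 0.895%. ERSE-II was found in 1 member, Herpud1, against 0.0365% of all promoters, and the UPRE core in 0 members against 0.676%. A match describes the letters of the window and is not evidence of binding. Stretches before the start are printed below for the members to which the results return: the abundant chaperones Calr, Hspa5 and Hsp90b1, both strongest early decreases, and 3 of the 4 members with CARE. The match of Trib3 lies after the start, at 14 to 21 bases, and is not printed. Capitals mark the ERSE, ERSE-II or CARE match, on whichever strand it lies.
Hspa5 (chr2:34772005-34772063, plus strand, ERSE): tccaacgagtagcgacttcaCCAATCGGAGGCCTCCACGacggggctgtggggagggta
Hsp90b1 (chr10:86705513-86705676, minus strand, 2 ERSE): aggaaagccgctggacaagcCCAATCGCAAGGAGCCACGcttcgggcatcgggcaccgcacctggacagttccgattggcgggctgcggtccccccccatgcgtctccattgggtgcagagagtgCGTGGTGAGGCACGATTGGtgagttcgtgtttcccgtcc
Calr (chr8:84847055-84847113, minus strand, ERSE reversed): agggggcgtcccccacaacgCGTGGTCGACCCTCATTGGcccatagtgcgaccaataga
Creld2 (chr15:88819500-88819558, plus strand, ERSE reversed): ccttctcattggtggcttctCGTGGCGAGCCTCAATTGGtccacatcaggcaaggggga
Derl3 (chr10:75893222-75893280, plus strand, ERSE reversed): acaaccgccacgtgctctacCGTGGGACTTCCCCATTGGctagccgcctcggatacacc
Herpud1 (chr8:94386297-94386407, plus strand, CARE reversed, then ERSE-II): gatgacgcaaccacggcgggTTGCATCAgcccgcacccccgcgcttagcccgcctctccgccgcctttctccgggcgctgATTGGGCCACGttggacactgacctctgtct
Chac1 (chr2:119351029-119351076, plus strand, CARE reversed): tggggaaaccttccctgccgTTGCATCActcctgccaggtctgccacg
Asns (chr6:7693210-7693252, minus strand, CARE): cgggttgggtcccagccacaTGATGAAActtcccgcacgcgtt

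Depth was close to even, with 25407492 to 41616275 counts per mouse and a median of 28004882, and every member had at least 52 counts in every mouse. Levels are given as CPM (counts per 1000000 counts of the library) after TMM scaling, which sets the libraries to a common total while discounting genes that shift it, and changes as log2 fold changes of the older over the younger age. The islet label held, since 10 beta cell markers (Ins1, Ins2 and others) summed to between 119035 and 283450 CPM. Leukocyte markers with a row (15 of the list) summed to 41.4 to 214.5 CPM in the 4-week mice and 62.0 to 246 in the 6-week mice. Their sum was 155 to 895 CPM in the 8-week mice, 909.5 to 2151 in the 10-week mice and 1794 to 2097 in the oldest. Acinar markers, the enzymes of the exocrine tissue around islets, summed to 1537 to 17293 CPM across the 15 mice, with 12310.1 in 4-week mouse 2, 10670.1 in 6-week mouse 1, 17293 in 10-week mouse 1 and 15067 in 12-week mouse 1. These are mixed-tissue levels, so fewer cells of a type and less RNA per cell cannot be told apart.

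Between 4 and 12 weeks the 3 arms did not move alike. In the PERK-Atf4 arm 3 of 7 genes rose and 0 fell, in the Ire1-Xbp1 arm 1 of 6 rose and 4 fell, and in the Atf6 arm 0 of 9 rose and 7 fell, at an edgeR adjusted p under 0.05. Of the shared ER degradation genes, 4 of 6 fell and 0 rose, and of the 4 other ER genes 3 fell and 1 rose. In all, 5 members rose and 18 fell, where 26.3% of all genes tested rose and 27.2% fell. Median log2 fold changes were 0.36 for the PERK-Atf4 arm, -0.33 for Ire1-Xbp1, -0.50 for Atf6, -0.41 for shared ER degradation and -0.41 for the other ER genes, beside -0.05 for all genes tested. The 3 mice of 12 weeks lay wholly above those of 4 weeks for 5 members and wholly below for 18, against 30.3% and 33.9% of all genes. With 3 mice against 3, the exact permutation test of a single gene can reach no p below 0.1, so calls rest on the edgeR quasi-likelihood test over all genes.

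**Figure D1:**
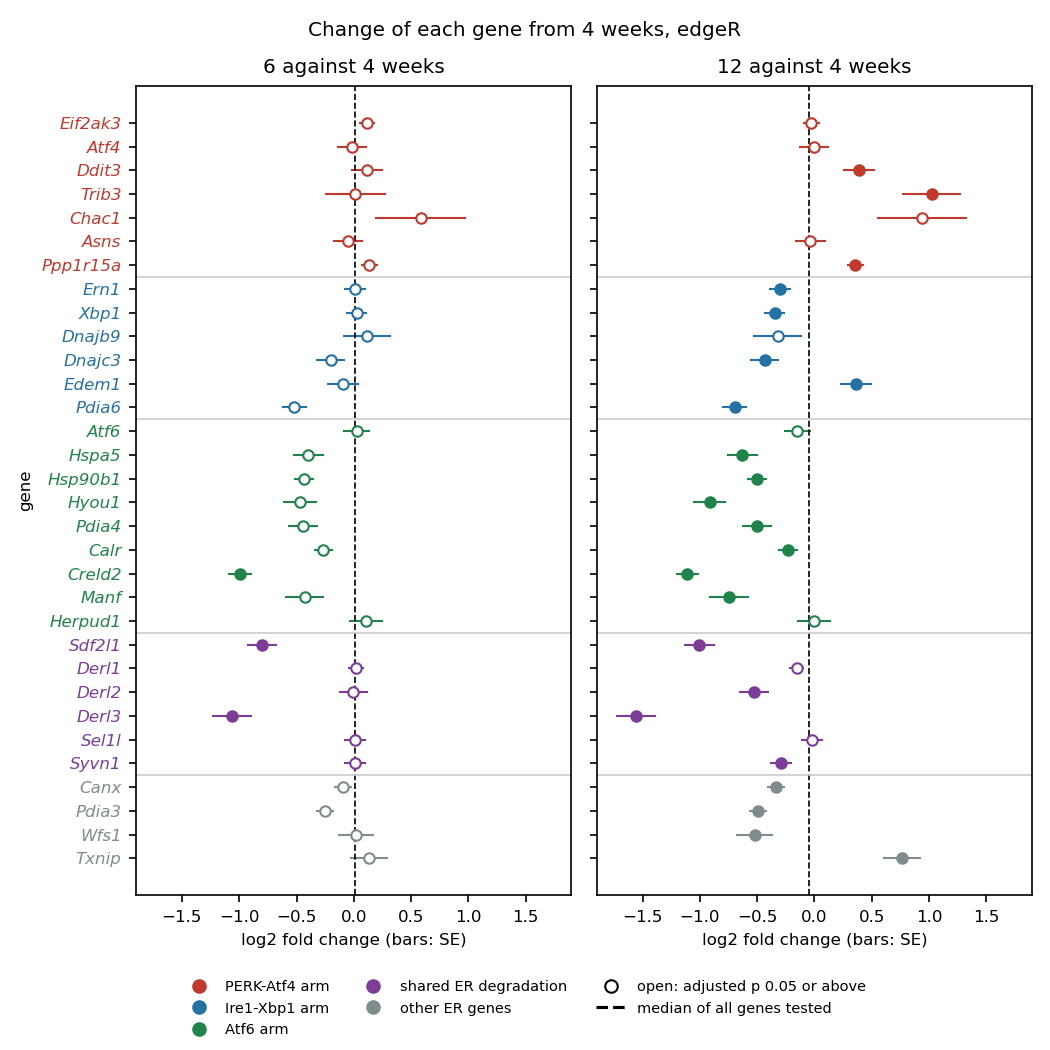
Log2 fold change (x axis, bars are SE) of each of the 32 genes (y axis) at 6 against 4 weeks (left) and 12 against 4 weeks (right), n = 3 mice per age, colored by arm. Filled points have an edgeR adjusted p under 0.05 and the dashed line is the median of all 16554 genes tested. At 12 weeks 7 of 9 Atf6-arm genes lie below the line with filled points under TMM scaling, whereas scaled to endocrine genes the median of that arm is 0.37.

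The direction of most decreases depends on what the libraries are scaled to. TMM sets an average gene to no change, and 11 of 12 pan-endocrine markers (Chga, Cpe, Insm1 and others) fell at 12 against 4 weeks, with a median of -0.91, while 15 of 15 leukocyte markers rose. Summed endocrine markers ran from 26219.8 to 27846 CPM at 4 weeks and from 12808 to 15983 at 12 weeks, without overlap. Scaled to the endocrine genes instead, 24 members were called higher and 1 lower (Derl3), where 81.0% of all genes were called higher and 0.816% lower. On that scale the arm medians were 1.24 for PERK-Atf4, 0.54 for Ire1-Xbp1 and 0.37 for Atf6, beside 0.83 for all genes. The sign of the Ire1-Xbp1 and Atf6 arms was thus turned. Rescaling shifts all genes by nearly the same amount, so the order of the arms could hardly change and is no separate result. On that scale 4 of 9 Atf6-arm genes and 4 of 4 other ER genes were called higher, among them Calr (0.65, SE 0.13), Hsp90b1 (0.38, SE 0.12) and Canx (0.55, SE 0.11), whereas Hspa5 (0.24, SE 0.14, adjusted p = 0.12) and Hyou1 (-0.05, SE 0.10, adjusted p = 0.662) had no called change. With library totals as the scale, 7 members were called higher and 9 lower, and the median of all genes was 0.20. The shares of all genes called on this scale are not given here, so these counts describe the members only. Each statement on a decrease below is on the TMM scale. With the mean leukocyte marker level of each mouse as a covariate, 0 members were called by edgeR at 12 against 4 weeks (5 at an unadjusted p under 0.05), as were 3 of all 16554 genes, and leukocyte levels of the 2 ages did not overlap. Age and leukocyte content cannot be told apart in this comparison.

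Of the 3 sensors, Ern1 was called at 12 against 4 weeks while Eif2ak3 and Atf6 were not. Their gene regions (GRCm38) were chr6:70844515-70905245 for Eif2ak3, chr11:106394650-106487852 for Ern1 and chr1:170704674-170867771 for Atf6. Eif2ak3 stood at 66.8, 64.7 and 72.4 CPM at 4 weeks, 77.9, 71.4 and 71.6 at 6 weeks, 68.3, 74.0 and 70.8 at 8 weeks, 84.5, 69.9 and 77.6 at 10 weeks and 66.9, 69.4 and 64.1 at 12 weeks. Eif2ak3, the kinase PERK, differed by a log2 fold change of -0.03 (SE 0.07, adjusted p = 0.79). Its 4-week and 12-week mice overlapped. Levels of Atf6 were 174, 147 and 157 CPM at 4 weeks, 158, 149 and 179.7 at 6 weeks, 182, 192 and 138 at 8 weeks, 150.4, 153 and 174 at 10 weeks and 151, 149 and 132 at 12 weeks. Atf6, the membrane-bound transcription factor, differed by a log2 fold change of -0.15 (SE 0.12, adjusted p = 0.313), again with overlap. In the 15 mice Ern1 measured 178, 184 and 208 CPM at 4 weeks, 196, 188 and 189 at 6 weeks, 194, 179 and 164 at 8 weeks, 136, 144 and 172 at 10 weeks and 166, 151 and 145 at 12 weeks. Ern1, the kinase and endonuclease Ire1, was lower at 12 than at 4 weeks in every mouse, by a log2 fold change of -0.30 (SE 0.10, adjusted p = 0.0176). That call was lost without 4-week mouse 3 or 12-week mouse 3, and scaled to endocrine genes Ern1 was higher (0.58, SE 0.08).

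In the PERK-Atf4 arm, Trib3, Ddit3 and Ppp1r15a rose and Atf4 itself was not called. Atf4 had 184, 171 and 191 CPM at 4 weeks, 217, 175 and 148 at 6 weeks, 165, 205 and 169.6 at 8 weeks, 185, 165 and 212 at 10 weeks and 183, 174 and 189 at 12 weeks. Atf4, whose activity is set largely by translation, differed by a log2 fold change of 0.00 (SE 0.13, adjusted p = 0.992) at 12 against 4 weeks, and all 5 ages overlapped. The mice gave Trib3 values of 3.14, 2.22 and 4.09 CPM at 4 weeks, 3.52, 3.21 and 2.84 at 6 weeks, 3.21, 5.17 and 3.86 at 8 weeks, 8.25, 6.4 and 6.28 at 10 weeks and 8.26, 4.68 and 6.32 at 12 weeks. Trib3, a pseudokinase induced by Atf4, rose by a log2 fold change of 1.02 (SE 0.26, adjusted p = 0.00569). The lowest 12-week mouse stood just above the highest 4-week mouse. Chac1 stood at 2.58, 2.65 and 6.11 CPM at 4 weeks, 7.49, 4.89 and 4.73 at 6 weeks, 4.48, 9.98 and 6.10 at 8 weeks, 18, 10.4 and 14.6 at 10 weeks and 9.85, 5.08 and 6.91 at 12 weeks. Chac1, an enzyme that degrades glutathione, had its highest mean at 10 weeks, and at 12 against 4 weeks it differed by a log2 fold change of 0.94 (SE 0.40, adjusted p = 0.0609). Chac1 would pass without 4-week mouse 3, 8-week mouse 2 or 12-week mouse 2, so its call turned on single mice. Levels of Ddit3 were 12.0, 11.7 and 12.6 CPM at 4 weeks, 15.2, 13.4 and 10.6 at 6 weeks, 13.2, 17.5 and 14.7 at 8 weeks, 20.9, 16.7 and 20.5 at 10 weeks and 16.5, 15.7 and 15.2 at 12 weeks. Ddit3, the pro-apoptotic factor CHOP, rose by a log2 fold change of 0.39 (SE 0.14, adjusted p = 0.0306). Every 12-week mouse lay above every 4-week mouse, but the call was lost without any 1 of the 6 mice of these ages (adjusted p up to 0.0839). Its gene region (chr10:127290774-127296288) also overlaps Mars on the opposite strand, which had 25645 counts beside 6690 for Ddit3, and whether counting used strand is not given in the sources used here, so its level is uncertain.

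Ppp1r15a, the phosphatase subunit GADD34 that reverses PERK signalling, ran from 29.4 to 33.4 CPM at 4 weeks and from 39.4 to 40.6 at 12, a rise by a log2 fold change of 0.36 (SE 0.07, adjusted p = 0.00173). It stayed called without any 1 mouse. Asns, asparagine synthetase, an Atf4 target with a CARE in the stretch printed above, ran from 47.1 to 56.5 CPM at 4 weeks and from 48.8 to 57.0 at 12 (a log2 fold change of -0.03 (SE 0.13, adjusted p = 0.85)). Its highest level, 74.9 CPM, was in an 8-week mouse.

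**Figure D2:**
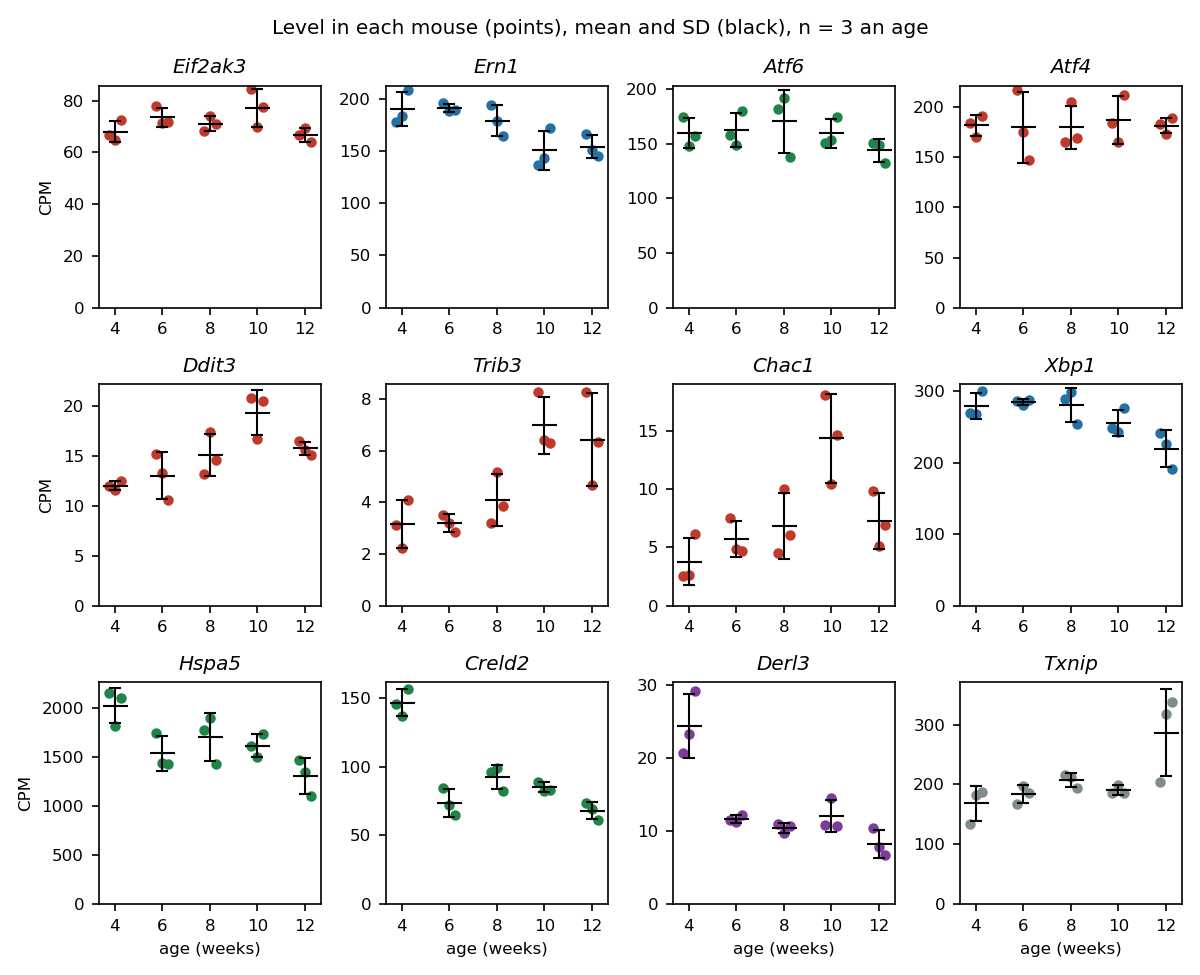
CPM (y axis, linear from 0) against age in weeks (x axis) for the sensors, transcription factors and leading targets, with a point for each of the 15 mice and the mean and SD of each age (n = 3) in black. Creld2 and Derl3 step down between 4 and 6 weeks, Trib3 and Chac1 have their highest means at 10 weeks, and Eif2ak3, Atf6 and Atf4 overlap between 4 and 12 weeks.

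In the Ire1-Xbp1 arm the transcription factor fell late. In the 15 mice Xbp1 measured 269, 268 and 300.5 CPM at 4 weeks, 286, 279.8 and 287 at 6 weeks, 289, 298 and 254 at 8 weeks, 248, 243 and 277 at 10 weeks and 241, 226 and 192 at 12 weeks. Xbp1 fell by a log2 fold change of -0.35 (SE 0.09, adjusted p = 0.00704) at 12 against 4 weeks, and each 12-week mouse was below every mouse of the other ages. Plasma cells are rich in Xbp1, and 5 of 5 plasma cell markers tested rose over the same time. The sum of the 6 markers with a row ran from 13.8 to 21.7 CPM at 4 weeks and from 191 to 336 at 12. The share of Xbp1 mRNA that came from such cells was not tested. The targets of Xbp1 differed among themselves. Dnajb9, the ER co-chaperone ERdj4, ran from 218 to 314 CPM at 4 weeks and from 169 to 266 at 12, and with a log2 fold change of -0.32 (SE 0.21, adjusted p = 0.219) it was not called. Dnajc3, the co-chaperone p58IPK, ran from 449 to 517 CPM and from 303 to 411, a decrease of a log2 fold change of -0.44 (SE 0.13, adjusted p = 0.0115) that was lost without 12-week mouse 3. Pdia6, a protein disulfide isomerase, ran from 729 to 824 CPM and from 432 to 522, and changed by a log2 fold change of -0.69 (SE 0.11, adjusted p = 0.000447). Edem1, which hands misfolded glycoproteins to degradation, was the exception, with 120.5 to 142 CPM at 4 weeks and 146 to 189 at 12. It rose by a log2 fold change of 0.36 (SE 0.14, adjusted p = 0.0459), a call that stayed in 6 of 15 fits leaving out a mouse.

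In the Atf6 arm 7 of 9 genes fell, all of them chaperones, folding enzymes or secreted ER proteins. Hspa5 had 2157, 1819 and 2101 CPM at 4 weeks, 1743, 1441 and 1431 at 6 weeks, 1778, 1904 and 1428 at 8 weeks, 1614, 1498 and 1737 at 10 weeks and 1470.3, 1349 and 1105 at 12 weeks. Hspa5, the Hsp70 chaperone BiP and the best known readout of the response, fell by a log2 fold change of -0.63 (SE 0.14, adjusted p = 0.00221). Every 12-week mouse was below every 4-week mouse. The mice gave Hsp90b1 values of 1567, 1547 and 1619.9 CPM at 4 weeks, 1273, 1141 and 1094 at 6 weeks, 1457, 1476 and 1247 at 8 weeks, 1206, 1128 and 1170.3 at 10 weeks and 1129, 1185 and 1037 at 12 weeks. Hsp90b1, the ER Hsp90 (Grp94), fell by a log2 fold change of -0.50 (SE 0.09, adjusted p = 0.000689). At 6 against 4 weeks it already differed by a log2 fold change of -0.43 (SE 0.09, adjusted p = 0.0839), which did not pass. Creld2 stood at 146, 137 and 157 CPM at 4 weeks, 84.5, 72.0 and 64.7 at 6 weeks, 96.5, 99.0 and 82.3 at 8 weeks, 89.3, 82.7 and 83.5 at 10 weeks and 73.7, 69.1 and 61.5 at 12 weeks. Creld2, a secreted ER stress protein with isomerase-like domains, fell by a log2 fold change of -1.11 (SE 0.10, adjusted p = 0.000128). The highest value from 6 weeks on, 99.0 CPM, lay below the lowest at 4 weeks, 137 CPM. Hyou1, the large Hsp70-like chaperone Grp170, ran from 1146 to 1345 CPM at 4 weeks and 517 to 746 at 12 (a log2 fold change of -0.92 (SE 0.15, adjusted p = 0.000481)). Manf, a secreted survival factor, ran from 311 to 388 and 160 to 274 CPM (a log2 fold change of -0.74 (SE 0.17, adjusted p = 0.00331)), though it overlaps Rbm15b and Vprbp and its counts are uncertain. Pdia4, another disulfide isomerase, ran from 236 to 280 and 164 to 200 CPM (a log2 fold change of -0.50 (SE 0.13, adjusted p = 0.00596)). Calr, the lectin chaperone calreticulin, showed the smallest decrease of the arm that passed, with 1123 to 1208 CPM at 4 weeks and 968 to 1056 at 12 (a log2 fold change of -0.23 (SE 0.08, adjusted p = 0.0372)). The Calr call was lost without 4-week mouse 1 or 3, 8-week mouse 2 or 12-week mouse 2 or 3.

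Levels of Herpud1 were 129, 121 and 145 CPM at 4 weeks, 158, 112 and 155 at 6 weeks, 109, 161 and 133 at 8 weeks, 181, 148 and 166 at 10 weeks and 138, 128 and 128 at 12 weeks. Herpud1, an adaptor of ER-associated degradation placed in the Atf6 arm, differed by a log2 fold change of 0.00 (SE 0.15, adjusted p = 0.996) at 12 against 4 weeks, and these ages overlapped. It is the member whose promoter held both an ERSE-II and a CARE. Its highest mean was at 10 weeks, as for Chac1 and Trib3. Eif2ak3, Atf4, Ddit3, Edem1, Sel1l and Syvn1, whose promoters held no CARE, also had their highest mean CPM at 10 weeks. Asns, which held a CARE, had its highest at 8 weeks. In the joint edgeR test over the 5 ages Eif2ak3, Atf4 and Sel1l were not called (adjusted p = 0.109, 0.992 and 0.685). Nor were Herpud1 (0.246) and Asns (0.106), so the age of their highest mean is uncertain. Chac1, Trib3, Ddit3, Edem1 and Syvn1 were called, although Syvn1 had a mean of 99.0 CPM at 10 weeks and 98.4 at 6. The 12-week mice of Herpud1 were all below its 10-week mice.

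Of the shared degradation genes, Derl3 and Sdf2l1 had the steepest decreases. In the 15 mice Derl3 measured 20.7, 23.3 and 29.2 CPM at 4 weeks, 11.6, 11.2 and 12.3 at 6 weeks, 11, 9.69 and 10.6 at 8 weeks, 10.8, 14.5 and 10.7 at 10 weeks and 10.4, 7.79 and 6.66 at 12 weeks. Derl3, the inducible Derlin of the retrotranslocation channel, fell by a log2 fold change of -1.56 (SE 0.18, adjusted p = 0.000162), which was the most negative change of the 32. Scaled to endocrine genes it was still called lower, at -0.69 (SE 0.19, adjusted p = 0.00496), and of the other members Creld2 (-0.23), Sdf2l1 (-0.13) and Hyou1 (-0.05) were below 0 without a call. Sdf2l1 had 206, 182 and 218 CPM at 4 weeks, 134, 120.3 and 93.0 at 6 weeks, 132, 127 and 125 at 8 weeks, 138, 139 and 149 at 10 weeks and 118, 100.4 and 84.4 at 12 weeks. Sdf2l1, a partner of BiP's co-chaperones, fell by a log2 fold change of -1.0 (SE 0.13, adjusted p = 0.000242). Both genes stood lower in every mouse of 6 weeks or older than in any mouse of 4 weeks. Derl1 ran from 130 to 145 CPM at 4 weeks and 116 to 134 at 12 (a log2 fold change of -0.15 (SE 0.07, adjusted p = 0.0701)), and Derl2 from 120 to 144 and 82.1 to 98 (a log2 fold change of -0.53 (SE 0.13, adjusted p = 0.00452)). Sel1l and Syvn1 form the core ubiquitin ligase of the pathway. Sel1l differed by a log2 fold change of -0.02 (SE 0.10, adjusted p = 0.885), and Syvn1 by a log2 fold change of -0.29 (SE 0.10, adjusted p = 0.0223), a call lost without 4-week mouse 3 or 12-week mouse 3. Derl2 overlaps Mis12 and Syvn1 overlaps Mrpl49, each partner with counts of 26.9% and 26.4% of the member's, so their values are uncertain to that extent.

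Among the other ER genes, Txnip rose and the rest fell. The mice gave Canx values of 654, 615 and 630.5 CPM at 4 weeks, 615, 607 and 558 at 6 weeks, 695, 707 and 609 at 8 weeks, 545, 502 and 574 at 10 weeks and 492, 528 and 489 at 12 weeks. Canx, the membrane lectin calnexin, fell by a log2 fold change of -0.33 (SE 0.08, adjusted p = 0.00337). Every 12-week mouse was below every mouse of 4, 6 and 8 weeks. Wfs1 stood at 210.3, 187 and 198 CPM at 4 weeks, 222, 197 and 186 at 6 weeks, 221, 224 and 161 at 8 weeks, 139, 153 and 204 at 10 weeks and 154, 146 and 115 at 12 weeks. Wfs1, the ER protein lost in Wolfram syndrome, fell by a log2 fold change of -0.52 (SE 0.16, adjusted p = 0.0158), a call lost without 12-week mouse 3. Pdia3, the isomerase that works with calnexin, ran from 1369 to 1517 CPM at 4 weeks and 990 to 1040 at 12 (a log2 fold change of -0.49 (SE 0.08, adjusted p = 0.000499)). Levels of Txnip were 134, 183 and 188 CPM at 4 weeks, 168, 198 and 186 at 6 weeks, 215, 212 and 194 at 8 weeks, 185, 199 and 186 at 10 weeks and 203, 318 and 338 at 12 weeks. Txnip, a thioredoxin inhibitor that responds to glucose as well as to ER stress, rose by a log2 fold change of 0.77 (SE 0.17, adjusted p = 0.0023). The 2 highest values, 318 and 338 CPM, were of 12-week mice 2 and 3, while 12-week mouse 1 was within the range of the 8-week mice.

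**Figure D3:**
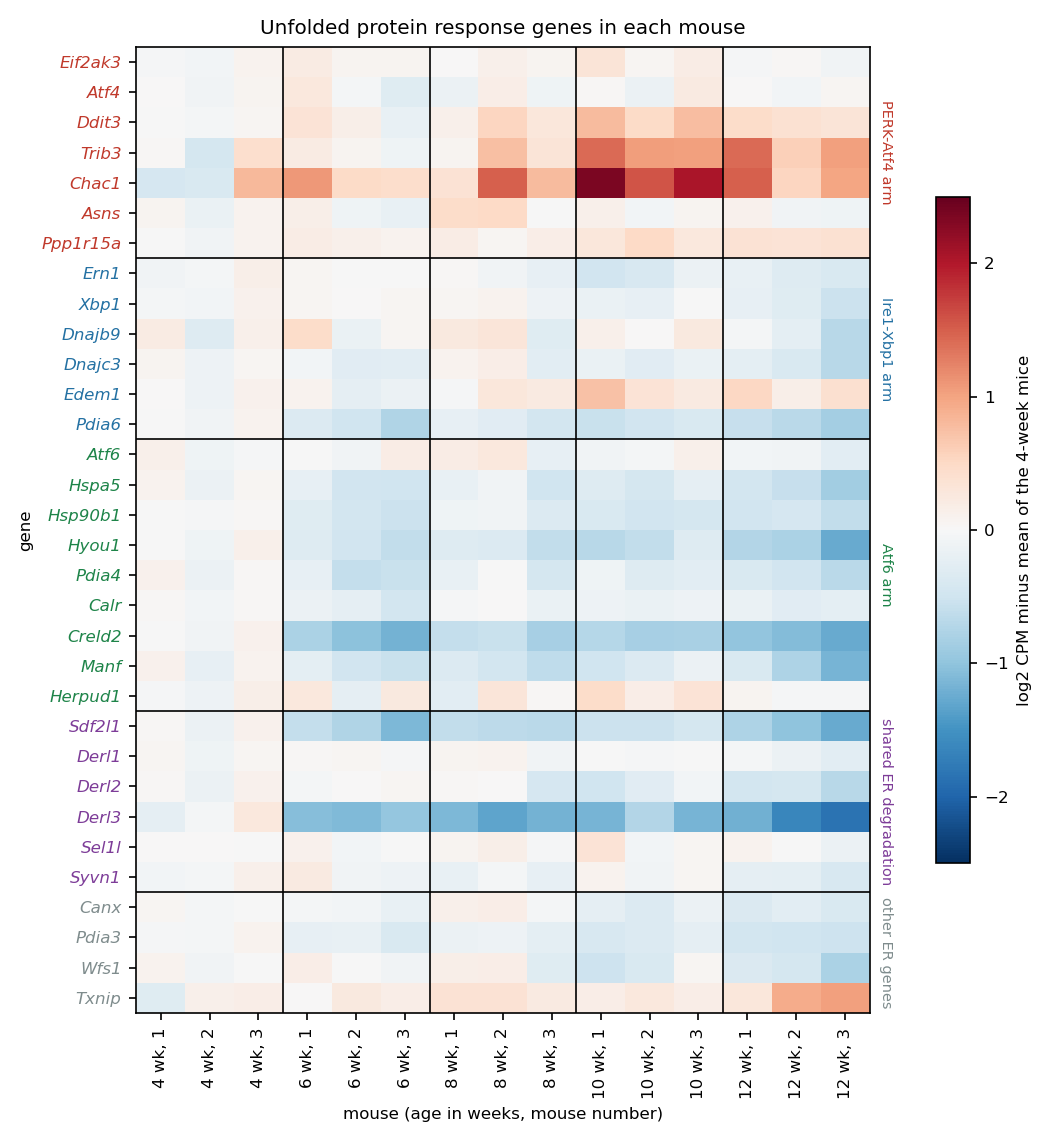
Heat map of log2 CPM minus the mean of the 4-week mice (red above and blue below), with the 32 genes as rows grouped by arm and the 15 mice as columns ordered by age. On this TMM scale the Trib3 and Chac1 rows are reddest on average at 10 weeks, although Trib3 is about as red in 12-week mouse 1. Chac1 is above its 4-week mean in every mouse from 6 weeks on. Creld2, Sdf2l1 and Derl3 turn blue from 6 weeks on, and 12-week mouse 3 is the bluest column in the Atf6 arm.

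The earliest step came between 4 and 6 weeks and held decreases for every member called. Creld2 fell by a log2 fold change of -0.99 (SE 0.10, adjusted p = 0.00598), Derl3 by a log2 fold change of -1.07 (SE 0.17, adjusted p = 0.0466) and Sdf2l1 by a log2 fold change of -0.80 (SE 0.13, adjusted p = 0.0466). These were 3 of 14 genes called lower in the whole table, 0.0846% of those tested, and 0 of 32 members were called higher, against 0.00604% (1 gene). By edgeR 11 members (34.4%) had an unadjusted p under 0.05, beside 8.67% of all genes. In 12 of 32 members all 6-week mice were below all 4-week mice, where 9.28% of all genes were. They were 7 of the 9 Atf6-arm genes (Hspa5, Hsp90b1, Hyou1, Pdia4, Calr, Creld2 and Manf), Pdia6, Sdf2l1, Derl3, Canx and Pdia3. The Atf6-arm median was -0.43, beside 0.12 for PERK-Atf4, -0.04 for Ire1-Xbp1 and 0.01 for all genes.

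At this step none of the marker lists had a called gene by edgeR, whether endocrine (0 of 12 with an unadjusted p under 0.05), beta cell (0 of 10), leukocyte (0 of 15), plasma cell (0 of 5), acinar (0 of 12), mesenchymal (0 of 7) or endothelial (1 of 5). As 15 of all 16554 genes were called, lists this short could hardly hold a call. Mean leukocyte marker levels had an SD between mice of 1.35 log2 CPM at 4 weeks and 1.32 at 6, and acinar ones 1.53 and 0.99. Whether cell content changed at this step was not tested. Scaled to endocrine genes the 3 members kept their direction (Creld2 -0.91, Derl3 -0.97 and Sdf2l1 -0.72), although edgeR called 0 of 16554 genes on that scale (1251 genes, 8 of them members, had an unadjusted p under 0.05). With the leukocyte covariate 5 members were called lower (the same 3 with Pdia6 and Hsp90b1). DESeq2 called 9 members and the edgeR exact test 5. The calls of Sdf2l1 and Derl3, both at an adjusted p of 0.0466, stayed in 3 and 4 of 15 fits leaving out a mouse (adjusted p up to 0.225 and 0.28), while Creld2 stayed in 14 and was lost without 6-week mouse 2 (0.0848).

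Between 6 and 8 weeks edgeR called 0 members and 0% of all genes, with 5 members (15.6%) at an unadjusted p under 0.05, beside 18% of all genes, and 2 called by DESeq2. Of the members, 21 of 32 had a log2 fold change above 0, among them Hsp90b1 (a log2 fold change of 0.25 (SE 0.09, adjusted p = 0.194)) and Creld2 (a log2 fold change of 0.33 (SE 0.10, adjusted p = 0.181)). Over this interval 14 of 15 leukocyte markers had an unadjusted p under 0.05 and edgeR called 0 of them.

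Between 8 and 10 weeks 1 member was called, Canx, which fell by a log2 fold change of -0.31 (SE 0.08, adjusted p = 0.0285), where 8.40% of all genes rose and 8.37% fell. The call was lost without 8-week mouse 1 or 2 or 10-week mouse 1 or 2, and 5 members were called without 10-week mouse 3. By edgeR 7 members had an unadjusted p under 0.05, of which 4 were in the PERK-Atf4 arm, a share of 21.9% beside 37.9% of all genes. In 4 members every 10-week mouse was above every 8-week mouse (Trib3, Chac1, Ppp1r15a and Sdf2l1), against 17.2% of all genes. Chac1 differed by a log2 fold change of 1.06 (SE 0.39, adjusted p = 0.0713), Trib3 by a log2 fold change of 0.77 (SE 0.26, adjusted p = 0.0548) and Ddit3 by a log2 fold change of 0.36 (SE 0.14, adjusted p = 0.0816), and none of these passed. Endocrine markers fell over the same interval (6 of 12 called) and 4 of 15 leukocyte markers rose.

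From 10 to 12 weeks the values pointed down again without a call. edgeR called 0 members and 0% of all genes, as did the edgeR exact test and DESeq2 for the members, with 12 members (37.5%) at an unadjusted p under 0.05, beside 7.51% of all genes. In 16 of 32 members, nevertheless, every 12-week mouse was below every 10-week mouse, against 5.40% of all genes, and the median of the members was -0.22 beside -0.002 for all genes. Those 16 came from all 3 arms, including Eif2ak3, Ddit3 and Chac1 as well as Xbp1, Hspa5, Creld2 and Herpud1. Chac1 differed by a log2 fold change of -0.98 (SE 0.39, adjusted p = 0.611), Sdf2l1 by a log2 fold change of -0.49 (SE 0.13, adjusted p = 0.577) and Derl3 by a log2 fold change of -0.54 (SE 0.17, adjusted p = 0.577). Txnip was the member with all 12-week mice above the 10-week ones (a log2 fold change of 0.59 (SE 0.17, adjusted p = 0.577)). At this step 0 of the 15 leukocyte markers had an unadjusted p under 0.05. In the joint test over the 5 ages 23 members were called, where 56.0% of all genes were. Chac1 was among them (adjusted p = 0.01) and Calr was not (adjusted p = 0.0668).

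Averaged over its genes in each mouse, the PERK-Atf4 arm stood above its 4-week mean by 0.14 ± 0.19 at 6 weeks, 0.30 ± 0.20 at 8, 0.63 ± 0.13 at 10 and 0.39 ± 0.15 at 12 (log2 CPM, SD, n = 3). The Atf6 arm stood at -0.37 ± 0.13, -0.24 ± 0.16, -0.27 ± 0.07 and -0.54 ± 0.16 at the same ages. Values of the Ire1-Xbp1 arm were -0.11 ± 0.13, -0.03 ± 0.14, -0.10 ± 0.07 and -0.29 ± 0.17. Thus the PERK-Atf4 mean was highest at 10 weeks and the Atf6 mean lowest at 12, with 6 weeks next to it. The PERK-Atf4 mean leaned on Chac1 and Trib3, the members with the fewest counts. From 4 to 10 weeks mean log2 CPM went from 1.83 to 3.81 for Chac1 and 1.64 to 2.81 for Trib3. It went from 3.60 to 4.27 for Ddit3, 4.97 to 5.32 for Ppp1r15a and 6.09 to 6.27 for Eif2ak3. For Atf4 it was 7.51 and 7.54, and for Asns 5.73 and 5.77.

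**Figure D4:**
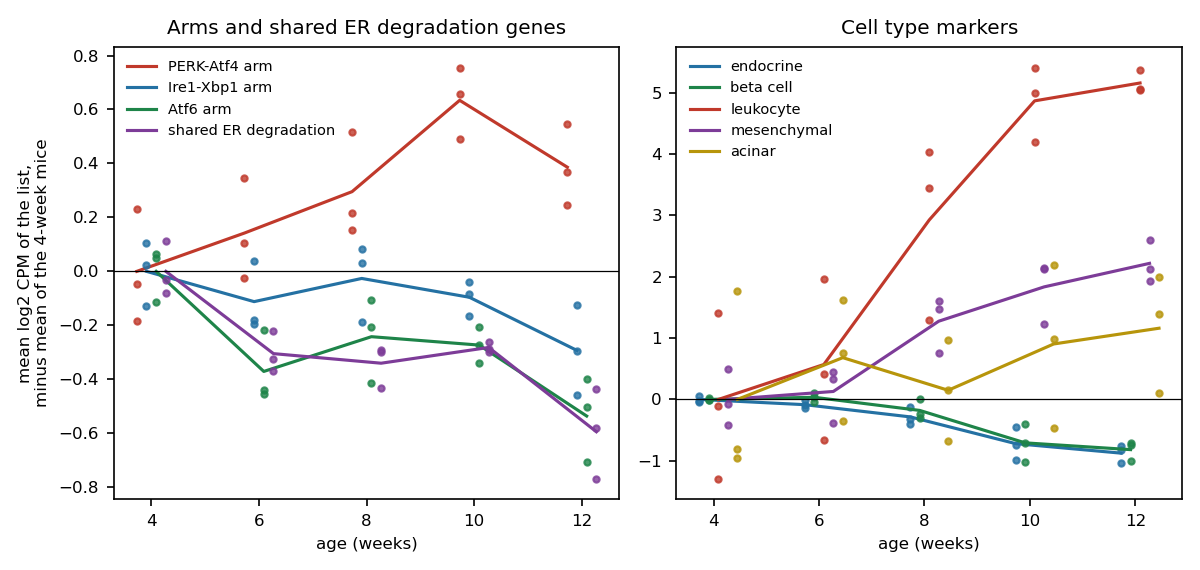
Mean log2 CPM of each list minus its 4-week mean (y axis) against age in weeks (x axis), with a point per mouse and a line through the age means (n = 3). Left, the arms on the TMM scale, with PERK-Atf4 at 0.63 and Atf6 at -0.27 at 10 weeks. Right, cell type markers, in which leukocyte and mesenchymal genes climb from 8 weeks on while endocrine and beta cell genes decline.

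Sorted by promoter instead of by arm, the 9 members with an ERSE were all called lower at 12 against 4 weeks, with a median of -0.50 and a range of -1.56 to -0.23. Of the 19 members whose promoter held none, 5 were called higher and 7 lower, with a median of -0.03. Over all genes tested 26.3% were called higher and 27.2% lower, with a median of -0.05. At 6 against 4 weeks the ERSE members had a median of -0.40 (8 of 9 below 0, 2 called). Members whose promoter held none had 0.01 (7 of 19 below 0, 1 called). At that step 0.0846% of all genes were called lower, and their median was 0.01. At 8 against 6 weeks 7 of the 9 were above 0, with a median of 0.20. Sdf2l1, Pdia4 and Xbp1 fell without an ERSE of these letters in the window. The 4 members without a promoter in the table were Atf6, Derl1, Hyou1 and Manf. Outside the 32, 11 tested genes hold the same letters, with older symbols matched through RefSeq synonyms. At 12 against 4 weeks 3 of them were called higher and 4 lower, among them Ero1lb, beside 26.3% and 27.2% of all genes. Of the 4 members with CARE, Trib3 rose, and Chac1, Asns and Herpud1 were not called.

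Of 27 further genes of the integrated stress response, the programme downstream of eIF2α, 13 were called higher and 4 lower at 12 against 4 weeks, with a median of 0.19. The shares of all genes tested were 26.3% higher and 27.2% lower, with a median of -0.05. The leading rises were Slc7a11, the cystine transporter (5.47, SE 1.02, adjusted p = 0.000988, from 2 to 13 counts per mouse at 4 weeks), and Nupr1, a stress-induced chromatin factor (2.31, SE 0.46, adjusted p = 0.00148). The leading decreases were Gars, the glycyl-tRNA synthetase (-0.54, SE 0.10, adjusted p = 0.00102), and Sesn2, a sestrin (-0.39, SE 0.08, adjusted p = 0.00197). Leukocyte markers rose over the same interval. With the leukocyte covariate edgeR called 0 of these 27 genes (6 at an unadjusted p under 0.05), with Slc7a11 at 0.17 (SE 1.21) and Nupr1 at 1.52 (SE 0.86). On the endocrine scale 27 were called higher and 0 lower, with a median of 1.07. There 81.0% of all genes were called higher and 0.816% lower, with a median of 0.83. Gars (0.34) and Sesn2 (0.48) were above 0 but below that median.

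Genes that feed proteins into and out of the ER went down on the TMM scale at 12 against 4 weeks. Beside the counts that follow, 27.2% of all genes tested were called lower and 26.3% higher, with a median of -0.05. Of 18 translocation genes, 16 fell and 0 rose (median -0.53), led by the translocon-associated subunits Ssr4 (-1.11, SE 0.15, adjusted p = 0.000257) and Ssr2 (-0.86, SE 0.12, adjusted p = 0.000274). Of 19 genes of oxidative folding and glycosylation, 17 fell and 0 rose (median -0.53), led by the isomerase Fkbp11 (-1.44, SE 0.20, adjusted p = 0.000305) and by Ero1lb, the thiol oxidase of beta cells (-1.01, SE 0.15, adjusted p = 0.000343). Further ER degradation genes gave 12 of 15 lower and 0 higher (median -0.27), led by Vimp (-0.62, SE 0.12) and the lectin Erlec1 (-0.59, SE 0.11). Of 15 ER export genes 13 fell and 0 rose (median -0.44), led by the cargo receptor Lman1 (-0.61, SE 0.14) and the retrieval receptor Kdelr3 (-0.59, SE 0.16). Among 9 further signal transducers 2 rose, Traf2, an adaptor of Ire1 (0.59, SE 0.14), and Rtcb, the ligase that rejoins Xbp1 mRNA (0.17, SE 0.06), and 4 fell, led by Creb3l2 (-0.56, SE 0.13) and Atf6b (-0.41, SE 0.07). Scaled to endocrine genes these list medians were 0.34 for translocation, 0.34 for oxidative folding, 0.60 for ER degradation, 0.43 for ER export and 0.85 for the transducers. The median of all genes on that scale was 0.83, above each of these lists but the transducers. At 6 against 4 weeks 0 of the 103 pathway genes tested were called by edgeR. Of them 13 (12.6%) had an unadjusted p under 0.05, beside 8.67% of all genes.

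In level, chaperones and stress effectors stood far apart. By the deposited TPM, which allows for gene length, the highest medians over the 15 mice were 852 for Pdia3, 839 for Calr, 836 for Hspa5 and 711 for Hsp90b1. Ranges over the mice were 686 to 954, 590 to 950, 647 to 1028 and 535 to 836, so these neighbours were not separated. The lowest medians were 4.17 for Trib3 (1.94 to 9.83), 8.57 for Chac1 (3.01 to 27.9), 18.3 for Derl3 (13.5 to 41.7) and 19.7 for Ddit3 (12.2 to 30.9). Among the sensors Atf6 (49.2) and Ern1 (46.1) were close and Eif2ak3 (29.6) was lower, while Atf4 (229) and Xbp1 (176) exceeded the sensors that control them. Trib3 and Chac1 were counted from 52 to 255 and 62 to 498 reads per mouse, so their changes carry more counting error than those of the chaperones.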

How the data were processed

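Islets of 15 NOD females were obtained by collagenase digestion, gradient separation and hand picking, and polyadenylated RNA was sequenced as read pairs. Reads were trimmed, aligned and counted by the authors with CLC Genomics Workbench under its defaults. The labels give the build mm10, and whether counting used strand is not given in the sources used here. The deposited counts are whole reads per gene with no normalization. The deposited TPM values, scaled by the authors for gene length and depth, were used for levels between genes. A further 30 per-sample columns (RPKM and CPM) were not used, and neither were columns of comparisons.

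Groups were taken from the age in each label, and nothing names a batch. Genes were kept by filterByExpr (16554 of 48709), scaled by TMM and fitted in edgeR 4.0.16 (R 4.3.3) with glmQLFit, 1 mean per age over all 15 mice. Contrasts between ages were tested by glmQLFTest with Benjamini-Hochberg adjustment over all genes tested, called at an adjusted p under 0.05, and all tests were two-sided. Log2 CPM used a prior count of 2. Pairs of mice of the same age differed by more than sampling noise (chi-square per degree of freedom 15.9 to 127, genes with at least 20 counts). The floor that a count of 0 allows, 3 counts, equals 0.0753 to 0.128 CPM, for counting error only.

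All members are named. Values in every mouse are given for the sensors, Atf4, Ddit3, Xbp1, Hspa5, Hsp90b1, Herpud1, Wfs1, Txnip, the 5 members with the largest change at 12 against 4 weeks and any member called between neighbouring ages. The members and all lists were chosen with earlier results of these data known, so lists are described by counts and medians without a test. Of the leukocyte list, Itgam was not analysed here.

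Alternatives were DESeq2 1.42.0 and its size factors, library totals, scaling to 12 endocrine genes, no filter, the 2 ages alone, the edgeR exact test, the study's threshold (1.5-fold, unadjusted p under 0.05), a leukocyte or an acinar covariate (the last chosen after seeing the data), a replicate block, other placement of the shared degradation genes, a prior count of 0.5 and each mouse left out. The pipeline was run on simulated counts in which a small share of genes changed at 12 weeks and cell content did not. That run could not test the choice of scale. Figures used Python 3.11.15 and matplotlib 3.10.9.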

Additional observations from a re-analysis of the deposited data

How the results depend on the processing

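At 12 against 4 weeks the count of members called was 23 and ran from 16 (without 12-week mouse 3) to 23 with each mouse left out. It came to 0 with the leukocyte covariate, where 3 of all genes were called, and to 10 at the study's threshold (3 higher and 7 lower). That threshold took 3458 genes higher and 1821 lower of the 16554 tested. In both directions together the members were taken about as often as all genes. Scaled to endocrine genes the count of members was 25, of the opposite make-up given above. At 6 against 4 weeks 3 members became 9 with DESeq2, 5 with the edgeR exact test or the leukocyte covariate, 1 with DESeq2 size factors, no filter or the acinar covariate, and 0 scaled to endocrine genes, with 0 to 3 over the fits that left out a mouse (0 without 6-week mouse 2, and 1 without any other mouse of these ages). At 10 against 8 weeks 1 member became 23 scaled to endocrine genes, 6 with DESeq2, 3 with library totals, 2 with DESeq2 size factors, the exact test or the study's threshold, and 0 with the 2 ages alone or either covariate, with 0 to 5 over the fits that left out a mouse (5 without 10-week mouse 3, 3 without 8-week mouse 3 and 0 without any other mouse of these ages). At 10 against 8 weeks the median of all genes was 0.44 scaled to endocrine genes, beside -0.005 on the TMM scale. The endocrine-scale count thus goes with a shift of the whole table. At this step the study's threshold took 1837 of all genes higher and 469 lower. The share of all genes called by DESeq2 is not given here, so its counts describe the members only. At 8 against 6 weeks DESeq2 called 2. At 12 against 10 weeks the study's threshold took 2 members (1 higher and 1 lower), beside 266 higher and 93 lower of all genes. Over the 5 ages the leukocyte covariate left 2 of 23, and the exact test and the 2 ages alone give no value there.

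Arm medians at 12 against 4 weeks moved with the scaling. With library totals they were 0.60 for PERK-Atf4, -0.095 for Ire1-Xbp1, -0.26 for Atf6, -0.17 for shared ER degradation and -0.17 for the other ER genes. Scaled to endocrine genes they were 1.24, 0.54, 0.37, 0.47 and 0.47. With the leukocyte covariate they were 0.49 for PERK-Atf4, -0.0080 for Ire1-Xbp1, -0.31 for Atf6, -0.13 for shared ER degradation and -0.12 for the other ER genes. Placing the shared degradation genes in either arm, or leaving out any mouse, moved no median by more than the spread between mice.

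Members whose log2 fold change at 12 against 4 weeks changed sign were, with DESeq2 size factors, Eif2ak3 (0.032), Atf4 (0.056), Asns (0.024), Herpud1 (0.057) and Sel1l (0.038), and DESeq2 itself gave 0.032, 0.056, 0.024, 0.057 and 0.038. The 2 ages alone gave 0.026, 0.050, 0.018, 0.051 and 0.033 for the same 5. With library totals they were Eif2ak3 0.22, Atf4 0.24, Asns 0.21, Atf6 0.093, Calr 0.016, Herpud1 0.24, Derl1 0.088 and Sel1l 0.22. Scaled to endocrine genes they were Eif2ak3 0.85, Atf4 0.88, Asns 0.84, Ern1 0.58, Xbp1 0.53, Dnajb9 0.54, Dnajc3 0.43, Pdia6 0.18, Atf6 0.72, Hspa5 0.24, Hsp90b1 0.38, Pdia4 0.37, Calr 0.65, Manf 0.12, Herpud1 0.88, Derl1 0.72, Derl2 0.34, Sel1l 0.85, Syvn1 0.59, Canx 0.55, Pdia3 0.39 and Wfs1 0.35, and Canx at 10 against 8 weeks came to 0.14. With the leukocyte covariate they were Eif2ak3 0.039, Atf4 0.32, Asns 0.35, Ern1 0.099, Dnajb9 0.12, Sel1l 0.015 and Syvn1 0.021, and with the acinar covariate Atf4 0.027. With each mouse left out, Atf4 ran from -0.048 to 0.035, Eif2ak3 from -0.062 to 0.022, Asns from -0.11 to 0.012, Herpud1 from -0.061 to 0.072 and Sel1l from -0.081 to 0.044. The cause of these shifts was not tested.

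With the replicate number as a block, 23 members were called at 12 against 4 weeks, 1 at 6 against 4, 0 at 10 against 8 and 21 over the 5 ages, and Herpud1 came to 0.0018. The numbers did not pair the mice, since deviations of mice with the same number correlated at -0.159 to 0.102 between 4 and 12 weeks, -0.504 to -0.0499 between 4 and 6, -0.118 to 0.509 between 6 and 8, -0.437 to 0.0889 between 8 and 10 and -0.25 to -0.0615 between 10 and 12, and no step had every pair above 0.1. Mice that correlated best with their own number were 2 of 6 between 4 and 12 weeks, 4 of 6 between 6 and 8, and 0 of 6 at the other steps. The lowest count of a member in a mouse was 52, above the floor of 3 counts, so depth limits Trib3 and Chac1 most, and 3 mice per age limit every comparison.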
